A study of Mus musculus with 8 samples.

Results

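The T-cell receptors (TCRs) of injured brains treated with an antibody to CD49d were compared between aged and young mice. The comparison took every cell with a receptor in the library of the aged mice (ATBI_aCD49d, 1123 cells in 539 clonotypes) and in that of the young mice (YTBI_aCD49d, 577 cells in 464 clonotypes). These were 1700 of the 2986 cells in the 4 receptor libraries. Each gene segment was counted once per clonotype and then once per cell, so that a segment used by many different rearrangements could be told from one that was common because a few clones had many cells.

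All mice were male C57BL/6 (B6) with a traumatic brain injury (TBI) made by controlled cortical impact. Young mice were injured at 13 to 15 weeks of age and came from the Jackson Laboratory, and aged mice were injured at 80 to 82 weeks and came from the colonies of the National Institute on Aging. The anti-CD49d antibody (aCD49d, clone PS/2) binds the α4 integrin subunit used by lymphocytes to enter tissue. It was started within hours of the injury and repeated every 2 weeks, and control mice (ATBI_Isotype and YTBI_Isotype) received an isotype antibody (clone LTF-2). CD45+ cells, which are leukocytes, were sorted from brains without meninges 2 months after TBI, and each library pooled the cells of 2 mice. Age, colony and library cannot be told apart, a clone may come from 1 of the 2 mice of its pool, and no test across mice could be made. Intervals are exact 95% Clopper-Pearson limits of a share or Newcombe limits of a difference, and cover counting error only. By cell they take every cell as an independent draw, though cells of a clone carry 1 rearrangement, so those intervals are too narrow. Since the transcriptomes of these cells were not analysed here, CD4+ and CD8+ T cells were not separated.

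An αβ TCR is built in the thymus by joining one of many V segments to a J segment, with a D segment between them in the β chain, while enzymes trim the ends and add bases that no germline gene encodes. The joined stretch, the complementarity-determining region 3 (CDR3), makes most of the contact with the antigenic peptide. The CDR3 nucleotide sequences of both chains together are used to mark the descendants of a single T cell. The β segments lie on mouse chromosome 6 and the α segments on chromosome 14, and positions are from GRCm38.

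Both libraries had a paired receptor for most cells. A cell's own β chain was read in 98.1% of aged and 97.4% of young cells and its own α chain in 83.4% and 78.3%, with a median of 10 and 9 unique molecular identifiers (UMIs) per β chain and 4 and 3 per α chain. More than 1 β chain was read in 22 aged and 3 young cells, which were kept. The receptor UMIs summed to 18415 in the aged library and 7483 in the young one. A β segment could be given to 527 aged and 453 young clonotypes, and an α segment to 466 and 375. The aged and young aCD49d libraries had 0 cell barcodes in common. Clonotypes of 10 or more cells held 436 aged cells in 11 clonotypes, 38.8% of the library, and 43 young cells in 2 clonotypes, 7.45%. Under the isotype antibody they held 42.3% of aged cells in 9 clonotypes and 0 of the 262 young cells. A cut of 10 cells is a larger part of a smaller library. Clonotypes above 1% of a library held 38.8% of aged and 10.7% of young cells under aCD49d. Under isotype they held 42.3% and 11.5%.

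The CDR3 sequences of the 5 largest aged clones and the largest young clone are shown because they hold many of the cells of segments described by cell below. They are written 5′ to 3′ from the deposited contigs, and capitals mark the bases that match neither the germline V nor the germline J segment, which are D, N and P bases together. Each name gives the library, the number of cells in the clone, and the V and J segments.
aged 101 cells, β TRBV12-2+TRBV13-2 with TRBJ2-4: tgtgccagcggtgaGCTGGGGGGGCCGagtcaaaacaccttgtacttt
aged 101 cells, α TRAV9-4 with TRAJ49: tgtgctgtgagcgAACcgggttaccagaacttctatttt
aged 78 cells, β TRBV10 with TRBJ2-7: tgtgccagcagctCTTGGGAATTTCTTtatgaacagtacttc
aged 78 cells, α TRAV9-4 with TRAJ34: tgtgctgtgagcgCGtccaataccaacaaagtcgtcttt
aged 69 cells, β TRBV3 with TRBJ2-7: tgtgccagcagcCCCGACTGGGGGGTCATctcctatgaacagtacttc
aged 69 cells, α TRAV16N with TRAJ13: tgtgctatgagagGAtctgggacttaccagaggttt
aged 52 cells, β TRBV12-2 with TRBJ2-3: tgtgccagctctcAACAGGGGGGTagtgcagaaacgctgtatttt
aged 52 cells, α TRAV12-2 with TRAJ32: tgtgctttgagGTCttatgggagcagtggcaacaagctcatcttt
aged 46 cells, β TRBV19 with TRBJ1-1: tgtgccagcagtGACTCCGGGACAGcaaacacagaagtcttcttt
aged 46 cells, α TRAV17 with TRAJ33: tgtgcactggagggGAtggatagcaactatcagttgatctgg
young 33 cells, β TRBV31 with TRBJ2-4: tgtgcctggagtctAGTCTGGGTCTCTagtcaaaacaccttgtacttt
young 33 cells, α TRAV9-2 with TRAJ31: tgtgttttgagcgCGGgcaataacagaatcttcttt

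Some of these clones were split by the deposited clonotype calls. An aged clonotype of 12 cells, called TRBV13-2 rather than TRBV12-2+TRBV13-2, had β and α CDR3s identical to those of the clone of 101 cells, which gives 113 cells together. Aged clonotypes of 20 and 12 cells had the β CDR3 of the clone of 69 cells. The clonotype of 12 cells shared its α CDR3 as well, and that of 20 cells had no α chain. The joint call TRBV12-2+TRBV13-2, which names a pair of neighbouring genes, had the V region of TRBV13-2 in 258 of 262 chains. Chains called TRBV10 carried the framework 3 sequence of the gene annotated as Trbv4 (chr6:41059394-41059886). The deposited names are kept below.

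An index of likeness in segment usage between the aged and young aCD49d libraries was higher by clonotype than by cell. Likeness was measured as the probability that a draw from each library gives the same segment, divided by the mean of that probability for 2 draws within a library, so that 1 means as alike as draws from a single library. By clonotype the index was 0.966 for TRBV, 0.976 for TRBJ, 0.992 for TRAV and 0.980 for TRAJ. By cell it was 0.834, 0.952, 0.398 and 0.573, lower for every segment type. Here 2 draws within a library can also fall in the same clone. Large clones absent from the other library thus lower the index by cell whatever segments are used. Its place below the index by clonotype is therefore no separate result on segment usage. The index weighs common segments most, so rare segments can differ at a value near 1. The TRAV index by cell was 0.817 when TRAV segments were joined into families, and to 0.922 without clonotypes above 1% of a library, where TRAJ had 0.929. Between the aged and young isotype libraries the values by clonotype were 0.930, 0.968, 0.965 and 0.992, and by cell 0.744, 0.785, 0.331 and 0.653. The 2 aged libraries, compared with one another by cell, had lower indices than aged and young libraries of either treatment, at 0.621, 0.613, 0.195 and 0.302. Both of these libraries hold large clones, which enter the index in the same way. By clonotype they had 0.992, 0.959, 0.998 and 0.982. The 2 young libraries had 0.908, 0.975, 0.949 and 0.871 by cell, and 0.963, 0.999, 0.990 and 0.983 by clonotype.

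Segments with at least 20 clonotypes in both aCD49d libraries together were compared one by one, which left 20 TRBV, 12 TRBJ, 11 TRAV and 18 TRAJ segments. A share that differed at least 1.5-fold was found by clonotype for 6 TRBV (30.0%), 1 TRBJ (8.33%), 6 TRAV (54.5%) and 7 TRAJ segments (38.9%). With the aged library thinned to the cell number of the young one, fewer segments reached the minimum, and 2 of 4 TRAV and 3 of 8 TRAJ segments passed by clonotype. By cell it was found for 9 TRBV (45.0%), 8 TRBJ (66.7%), 9 TRAV (81.8%) and 12 TRAJ segments (66.7%). The interval of the difference left out 0 for 5 of the 61 segments by clonotype, namely TRBJ1-1, TRBV1 and TRAJ34, which were higher in the aged library, and TRBV31 and TRAJ37, which were higher in the young one. By cell it left out 0 for 30 segments, 11 higher in the aged and 19 higher in the young library. Those intervals count the cells of a clone as separate draws, so the 30 cannot be set against the 5 as evidence. The 74 TRAV segments under the minimum held 62.4% of aged and 62.1% of young α clonotypes, so most single TRAV segments were too rare to be compared.

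The TRBJ1-1 segment (chr6:41533864-41533911), the first of the TRBJ1 cluster, showed the largest difference by clonotype and was as different by cell. It was used by 80 of 527 aged clonotypes, 15.2% (interval 12.2 to 18.5), and by 35 of 453 young clonotypes, 7.73% (5.44 to 10.6). The aged share was 1.96-fold higher, a difference of 7.45 percentage points (3.34 to 11.5). By cell it was 14.8% (12.7 to 17.0) in the aged and 6.54% (4.64 to 8.90) in the young library, a difference of 8.24 points (5.12 to 11.2). The intervals of the shares did not overlap in either count.

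This difference in TRBJ1-1 was not carried by single large clones. Among clonotypes of 1 cell, TRBJ1-1 made up 67 of 446 aged (15.02%) and 33 of 414 young ones (7.97%), a difference of 7.05 points (2.65 to 11.4). Among those of 2 or more cells it made up 13 of 81 aged (16.0%) and 2 of 39 young ones (5.13%), with an interval of the difference that includes 0. The TRBJ1-1 share was higher in the aged library within 16 of the 20 TRBV segments. The aged clone of 46 cells shown above uses TRBJ1-1 and holds 28.0% of the aged TRBJ1-1 cells. In the isotype libraries TRBJ1-1 was used by 9.35% of aged and 6.82% of young clonotypes, a difference of 2.54 points (−2.35 to 6.80), and by 4.84% and 5.95% of cells. The aged share was higher within 13 of 20 TRBV segments there. The aged aCD49d library thus had the highest TRBJ1-1 share of the 4 libraries in both counts.

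**Figure D1:**
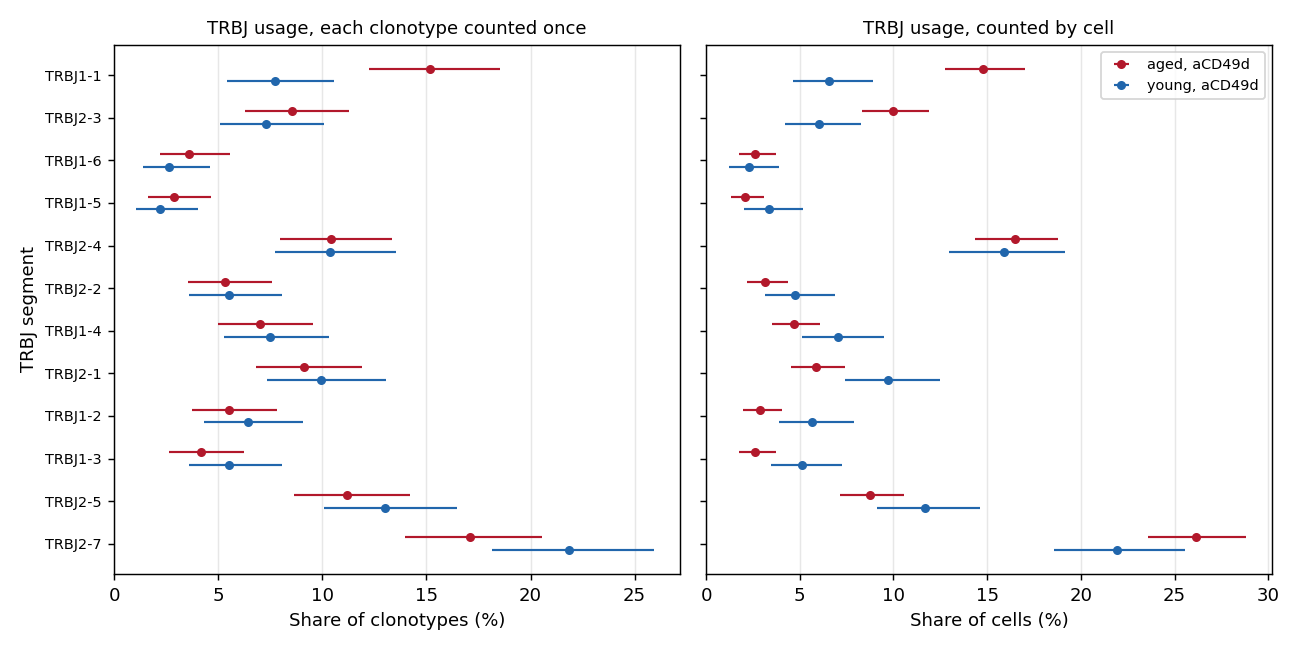
Share of clonotypes (left) and of cells (right) that use each TRBJ segment, in percent, in the aged (red) and young (blue) aCD49d libraries. Points are shares, bars are exact 95% intervals for counting error, and segments are ordered by the difference by clonotype. TRBJ1-1 stands apart in both panels (15.2% against 7.73% of clonotypes), while TRBJ2-7 changes order between them.

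The other TRBJ segments differed less by clonotype. TRBJ2-7 (chr6:41543810-41543856), the last of the TRBJ2 cluster, was used by 17.1% of aged and 21.9% of young clonotypes, a difference of −4.78 points (−9.92 to 0.33). By cell the order turned, with 26.1% of aged and 21.9% of young cells, a difference of 4.22 points (−0.23 to 8.51). The aged clones of 78 and 69 cells both use TRBJ2-7, and without clonotypes above 1% of a library the difference by cell was −6.94 points. TRBJ2-5 (chr6:41543453-41543501) was used by 11.2% of aged and 13.02% of young clonotypes. TRBJ2-3 (chr6:41543223-41543271) was used by 8.54% and 7.28% of clonotypes and by 10.0% and 6.01% of cells, a difference by cell of 3.99 points (1.14 to 6.63) that includes the aged clone of 52 cells. The TRBJ2 cluster as a whole held 61.7% of aged and 68.0% of young clonotypes, a difference of −6.32 points (−12.4 to −0.18), and 70.4% and 70.0% of cells. Without clonotypes above 1% of a library the difference by cell was −7.03 points.

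Among TRBV segments, TRBV31 was less common in the aged library by either count. TRBV31 (chr6:41557691-41558452, minus strand) lies downstream of the constant regions and joins by inversion, unlike the other V segments of the locus. It was used by 10 of 527 aged clonotypes, 1.90% (0.91 to 3.46), and by 30 of 453 young ones, 6.62% (4.51 to 9.32). The young share was 3.49-fold higher, a difference of −4.72 points (−7.60 to −2.10). The shares were lower in the aged library with 9 of the 12 TRBJ segments, equal with 3 and higher with 0. Clonotypes of 1 cell gave a difference of −4.50 points.

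By cell, TRBV31 made up 11 aged cells, 0.99% (0.50 to 1.77), and 64 young cells, 11.3% (8.82 to 14.2), a difference of −10.3 points (−13.3 to −7.71). The young clone of 33 cells held 51.6% of the young TRBV31 cells, and without the largest clonotype of each library the difference was −4.73 points. What remained by cell without that clonotype was thus close to the difference by clonotype. In the isotype libraries TRBV31 went the other way by clonotype, with 5.79% of aged and 1.82% of young clonotypes, a difference of 3.97 points (0.57 to 6.87).

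TRBV1 (chr6:40891229-40891885), the V segment farthest upstream, was more common among aged clonotypes. It was used by 46 aged clonotypes, 8.73% (6.46 to 11.5), and by 20 young ones, 4.42% (2.72 to 6.74). The difference was 4.31 points (1.07 to 7.54), or 1.98-fold, and the aged share was higher with 9 of 12 TRBJ segments. By cell the shares were 5.59% and 3.89%, a difference of 1.70 points (−0.62 to 3.79). No aged TRBV1 clonotype had more than 7 cells. Without clonotypes above 1% of a library the shares by cell were 9.20% and 4.37%, a difference of 4.83 points. The isotype libraries had TRBV1 in 6.46% of aged and 4.09% of young clonotypes. TRBV13-1 (chr6:41116007-41116468) was used by 6.26% of aged and 9.27% of young clonotypes, a difference of −3.01 points (−6.61 to 0.48), and by 4.32% and 9.19% of cells, a difference of −4.86 points (−7.77 to −2.23). TRBV15 (4.17% against 2.21% of clonotypes) was also past 1.5-fold by clonotype in the aged direction, as were TRBV29 (4.55% against 7.06%), TRBV26 (1.52% against 2.65%) and TRBV20 (1.90% against 2.87%) in the young direction. The intervals of the last 4 differences include 0.

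**Figure D2:**
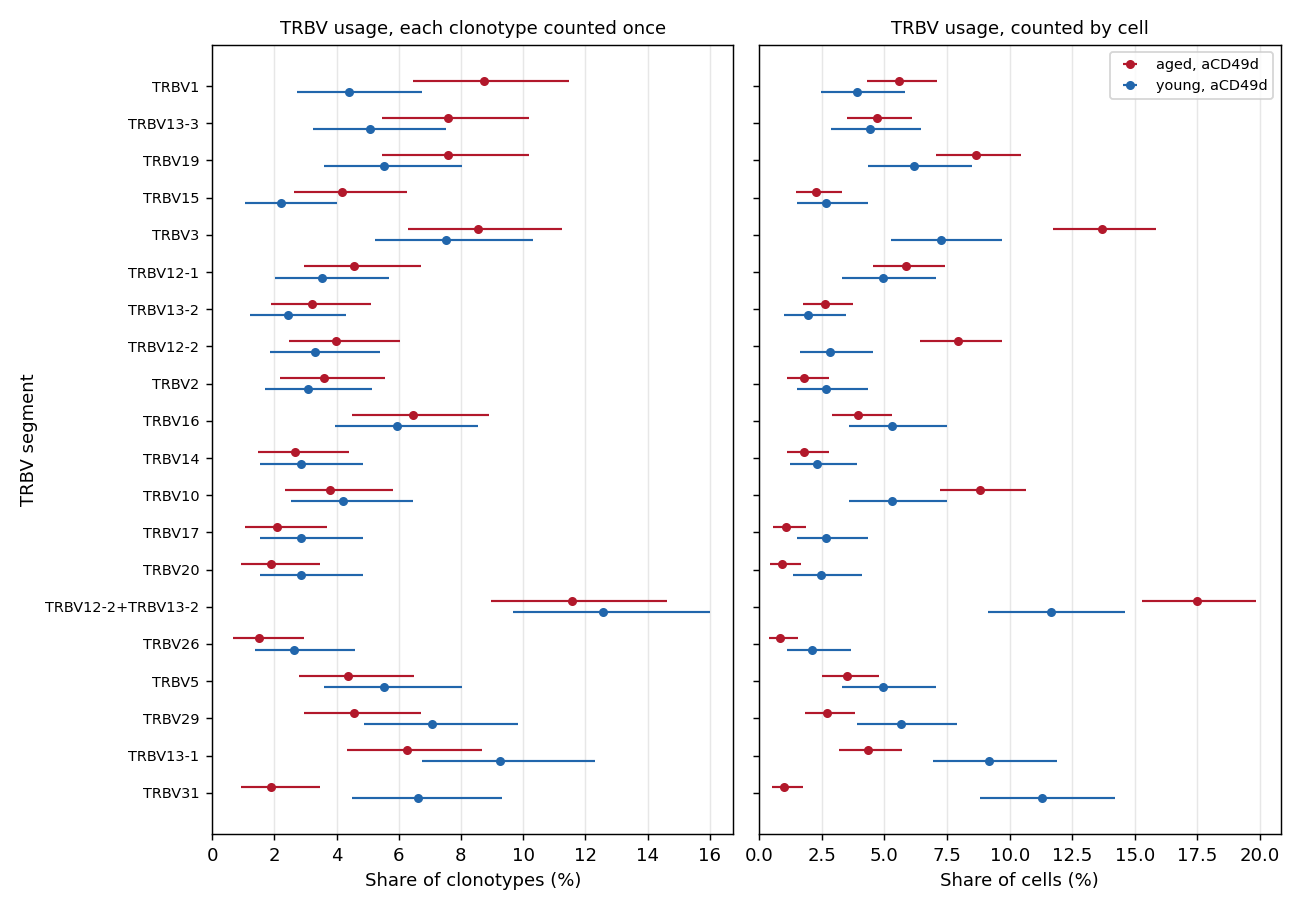
Share of clonotypes (left) and of cells (right) that use each TRBV segment, in percent, in the aged (red) and young (blue) aCD49d libraries, with exact 95% intervals for counting error. TRBV31 is lower in the aged library in both panels. TRBV1 differs more by clonotype than by cell when all cells are counted. The bars of TRBV3, TRBV12-2, TRBV13-1, TRBV29 and the joint call TRBV12-2+TRBV13-2 overlap by clonotype and not by cell.

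In contrast, 4 TRBV calls were more common among aged cells with little difference by clonotype. TRBV3 (chr6:41048290-41048828) was used by 8.54% of aged and 7.51% of young clonotypes, a difference of 1.03 points (−2.57 to 4.56), but by 13.7% and 7.24% of cells, a difference of 6.45 points (3.30 to 9.39). TRBV12-2 (chr6:41118851-41119364) was used by 3.98% and 3.31% of clonotypes, and by 7.93% and 2.83% of cells, a difference of 5.10 points (2.80 to 7.22). The joint call, whose sequence matches TRBV13-2 (chr6:41121396-41121832), was used by 11.6% and 12.6% of clonotypes, and by 17.5% and 11.7% of cells, a difference of 5.82 points (2.15 to 9.28). TRBV10 was used by 3.80% and 4.19% of clonotypes, and by 8.83% and 5.30% of cells, a difference of 3.53 points (0.82 to 6.02).

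In each of these calls 1 aged clone held a large share of the cells. The clone of 69 cells was 45.4% of the aged TRBV3 cells, and the clone of 52 cells was 59.1% of the TRBV12-2 cells. The clone of 101 cells was 52.1% of the cells with the joint call, and the clone of 78 cells was 79.6% of the TRBV10 cells. The clonotypes of 20 and 12 cells with the β CDR3 of the clone of 69 cells are not in its 45.4%. Without clonotypes above 1% of a library, the difference by cell was −0.568 points for TRBV3 and −1.52 points for the joint call, whereas TRBV12-2 kept a higher aged share, with a difference of 2.17 points. The TRBV10 shares were then 2.97% of aged and 3.97% of young cells. Adding TRBV13-2 to the joint call gave 14.8% of aged and 15.01% of young clonotypes, and 20.1% and 13.6% of cells.

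Of the 11 TRAV segments that passed the minimum, the interval of the difference left out 0 for 0 by clonotype and for 5 by cell, 2 higher in the aged and 3 higher in the young library. TRAV16N (chr14:53351028-53351621) was used by 4.29% of aged and 2.13% of young clonotypes, a difference of 2.16 points (−0.46 to 4.72), and by 10.9% and 2.47% of cells, a difference of 8.43 points (5.85 to 10.8). The clone of 69 cells was 61.6% of the aged TRAV16N cells, without the clonotype of 12 cells that had the same CDR3s. TRAV12-2 was used by 3.22% and 2.67% of clonotypes and by 6.81% and 3.70% of cells. The clone of 52 cells was 74.3% of the aged TRAV12-2 cells. Without clonotypes above 1% of a library the shares by cell were 2.94% and 2.59%. TRAV3D-3 was lower in the aged library, at 2.79% against 4.27% of clonotypes and 1.46% against 3.50% of cells. TRAV9-4 (chr14:53676141-53676630) had 10 aged and 3 young clonotypes, under the minimum, but 205 aged and 4 young cells, 19.9% against 0.82%, a difference of 19.1 points (16.4 to 21.8). The clones of 101 and 78 cells, whose α CDR3s above open with the same germline bases and differ in junction and J segment, were 179 of those 205 cells. The clonotype of 12 cells with the CDR3s of the clone of 101 cells is not in the 179.

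Of the TRAJ segments that passed the minimum, TRAJ37 and TRAJ34 differed by clonotype as well as by cell. Under the minimum, the interval by clonotype also left out 0 for TRAJ17, TRAJ39 and TRAJ11. Their aged and young clonotypes were 2 and 11, 4 and 12, and 8 and 0. TRAJ37 (chr14:54181518-54181577) was used by 2.15% of aged and 5.07% of young clonotypes, a difference of −2.92 points (−5.87 to −0.26), and by 0.97% and 4.73% of cells. The isotype libraries had it in 2.62% of aged and 4.66% of young clonotypes. TRAJ34 (chr14:54184699-54184756) was used by 4.51% and 1.87% of clonotypes, a difference of 2.64 points (0.06 to 5.19), and by 10.5% and 1.44% of cells, a difference of 9.07 points (6.71 to 11.3). The clone of 78 cells was 72.2% of the aged TRAJ34 cells. In the isotype libraries TRAJ34 was lower in the aged library, at 2.04% against 5.18% of clonotypes.

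The other named TRAJ segments that passed the minimum differed mainly by cell. TRAJ49 (chr14:54168686-54168747) was used by 3.22% of aged and 2.13% of young clonotypes, and by 12.9% and 1.65% of cells, a difference of 11.3 points (8.75 to 13.7). The clone of 101 cells was 75.9% of the aged TRAJ49 cells, and without the largest clonotype of each library the difference was 1.69 points. The clonotype of 12 cells with the same CDR3s is not in the 75.9%. TRAJ32 (chr14:54186101-54186166) was used by 3.86% and 2.93% of clonotypes, and by 9.92% and 2.47% of cells, a difference of 7.45 points. The clone of 52 cells was 51.0% of the aged TRAJ32 cells, and without clonotypes above 1% of a library the difference was 2.89 points. TRAJ31 (chr14:54187895-54187951) was the segment of the young clone of 33 cells, which was 58.9% of the young TRAJ31 cells. It was used by 3.43% of aged and 5.87% of young clonotypes, and by 2.33% and 11.5% of cells, a difference of −9.19 points.

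**Figure D3:**
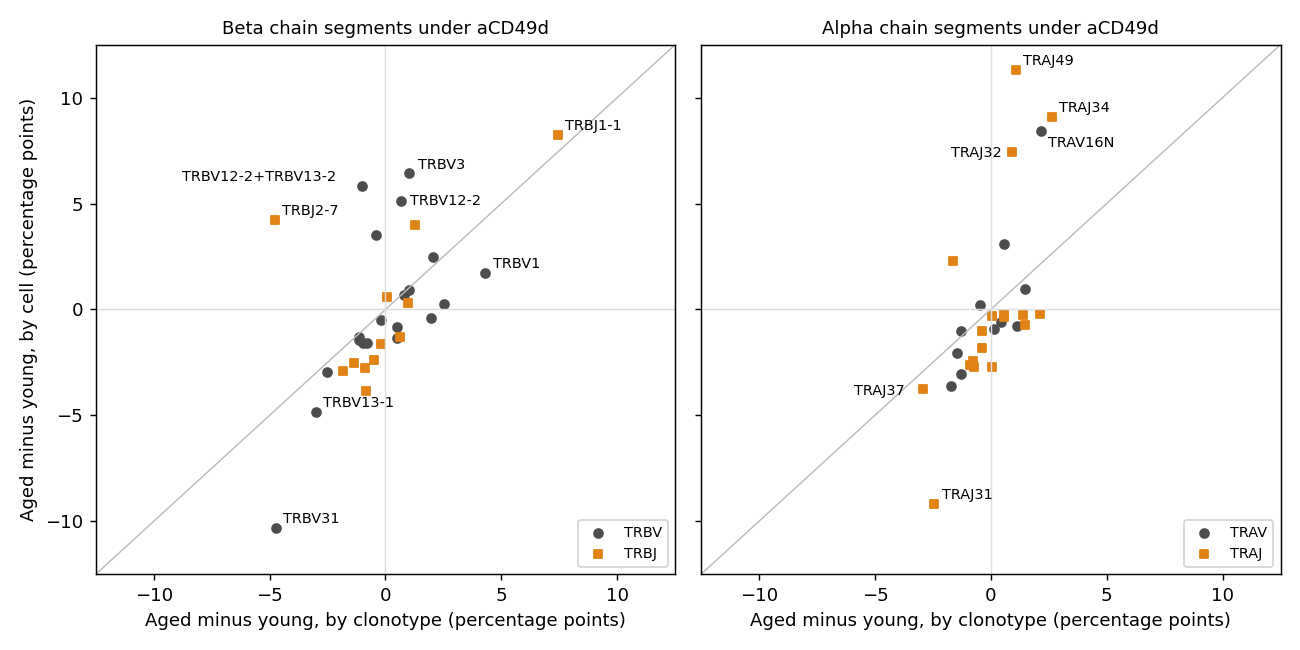
Difference in share, aged minus young under aCD49d, in percentage points, by clonotype (horizontal) and by cell (vertical), for β segments (left) and α segments (right), with each point 1 segment that passed the minimum. On the diagonal line both counts give the same difference, as for TRBJ1-1 (7.45 and 8.24 points). TRAJ49, TRAJ34, TRAJ32 and TRAV16N lie far above it.

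The 2 counts gave the same direction for 15 of 20 TRBV, 10 of 12 TRBJ, 7 of 11 TRAV and 10 of 18 TRAJ segments. A difference past 1.5-fold in the same direction in both counts was seen for 4 TRBV, 1 TRBJ, 5 TRAV and 4 TRAJ segments, and by cell only for 5, 7, 3 and 7. TRAV6N-7 and TRAJ33 were past 1.5-fold in both counts but in opposite directions. TRAV6N-7 was used by 14 of 466 aged and 7 of 375 young clonotypes, and by 1.46% and 2.26% of cells. TRAJ33, the α J segment of the aged clone of 46 cells, was used by 11 and 15 clonotypes, and by 6.61% and 4.32% of cells. The largest difference was 7.45 points by clonotype, for TRBJ1-1, and 11.3 points by cell, for TRAJ49, among the segments that passed the minimum.

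**Figure D4:**
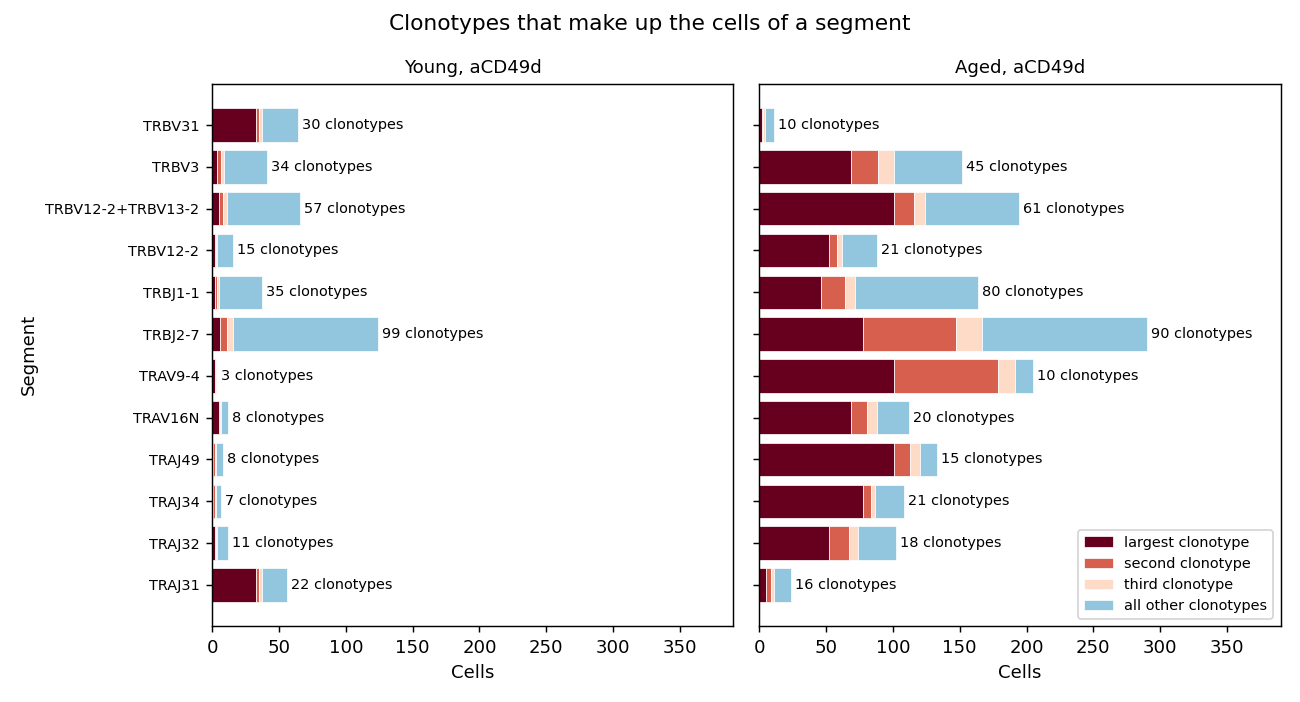
Cells of each segment in the young (left) and aged (right) aCD49d libraries, divided into the 3 largest clonotypes (dark to light red) and all others (blue), with the number of clonotypes beside each bar. Most of the aged TRAJ49, TRAJ34 and TRAV9-4 cells lie in 1 or 2 clonotypes, while the 164 aged TRBJ1-1 cells lie in 80 clonotypes.

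V-J pairing was examined by setting the share of each pair beside the share expected from the product of its V and J shares. In the β chain the pairs followed that product by clonotype. The probability that 2 clonotypes shared a β pair was 0.670% in the aged library, against 0.640% expected, and 0.691% in the young library, against 0.680%. By cell it was 3.44% against 1.24% in the aged and 1.21% against 0.755% in the young library. In the α chain it was above the product even by clonotype, at 0.723% against 0.0757% in the aged and 0.928% against 0.0798% in the young library. The invariant pair TRAV11 with TRAJ18, described below, was the most common α pair by clonotype in both libraries. It alone among α pairs had at least 10 clonotypes in both libraries together. Its share was 8.15% of aged and 9.33% of young α clonotypes, against 0.79% and 0.95% expected. The probability was not computed without this pair, so the excess cannot be read as a trait of α pairing in general. The α locus joins V and J segments in successive rounds that move outward, and the rank of TRAV along the locus was related to that of TRAJ, with a Spearman coefficient of −0.372 over 466 aged clonotypes and −0.335 over 375 young ones. The mean TRAJ rank among 60 genes was 33.5 and 33.8 by clonotype and 31.0 and 33.8 by cell.

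Among pairs with at least 10 clonotypes in both libraries together, the 3 largest differences by clonotype in the β chain had intervals that include 0. The joint call with TRBJ2-7 made up 1.33% of aged and 2.87% of young clonotypes, a difference of −1.54 points (−3.68 to 0.38), and the joint call with TRBJ2-5 1.33% and 2.65%. TRBV1 with TRBJ1-1, the pair of the 2 segments that were higher in the aged library, had 9 aged and 2 young clonotypes, 1.71% against 0.44%, a difference of 1.27 points (−0.20 to 2.82). The product of the shares was 1.33% and 0.34%. TRBV16 with TRBJ2-4 had the same counts.

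By cell, the pairs that differed most were those of the large clones. TRBV3 with TRBJ2-7 held 10.1% of aged and 1.59% of young cells, a difference of 8.50 points (6.29 to 10.6), from 11 aged and 7 young clonotypes. Among these, the aged clonotypes of 69, 20 and 12 cells had identical β CDR3s. The joint call with TRBJ2-4 held 9.46% and 1.41% of cells from 5 and 4 clonotypes, and without the largest clonotype the difference went from 8.05 to −1.1 points. TRBV31 with TRBJ2-4 held 1 aged and 39 young cells, 0.09% against 6.89%, from 1 and 7 clonotypes. With fewer than 10 clonotypes it was under the minimum by clonotype, where its difference was −1.36 points (−2.98 to −0.093). The α pairs TRAV9-4 with TRAJ49 (11.0% of aged cells), TRAV16N with TRAJ13 (7.88%) and TRAV9-4 with TRAJ34 (7.68%) came from 2 aged clonotypes each and were found in 0 of 486 young cells. In the first and the second of these pairs the 2 clonotypes had identical β and α CDR3s, so each pair rests on 1 rearrangement. Against the 3 cells that a count of 0 allows in the young library, the aged shares were 17.8-fold, 12.8-fold and 12.4-fold higher. These folds take each cell as an independent draw and are not lower limits. Behind each pair lie 2 aged and 0 young clonotypes.

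CDR3 length did not separate the libraries by clonotype. The mean β CDR3 length was 14.03 ± 1.38 amino acids (SD over 527 clonotypes) in the aged and 13.98 ± 1.40 (SD over 453 clonotypes) in the young library, a difference of 0.046. By cell it was 14.46 ± 1.36 and 14.09 ± 1.43, a difference of 0.367. The β CDR3s of 16 amino acids made up 24.5% of aged and 13.6% of young cells, but 8.73% and 8.39% of clonotypes. The β chains of the aged clones of 101 and 69 cells and of the young clone of 33 cells shown above have this length. Without clonotypes above 1% of a library the difference by cell was 0.054 amino acids. In the isotype libraries the difference by cell was −0.450.

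The α chain was alike in mean length, and its distribution differed by cell. Its mean CDR3 length was 13.70 in aged and 13.72 in young clonotypes, and 13.53 and 13.57 in cells. By cell, CDR3s of 13 amino acids made up 34.5% of aged and 17.3% of young α chains, and those of 12 amino acids 16.1% and 25.1%. By clonotype the shares were 23.6% and 19.2% at 13 amino acids and 14.4% and 15.5% at 12. The α chains of the aged clones of 101 and 78 cells have 13 amino acids. Those of the aged clone of 69 cells and the young clone of 33 cells have 12.

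**Figure D5:**
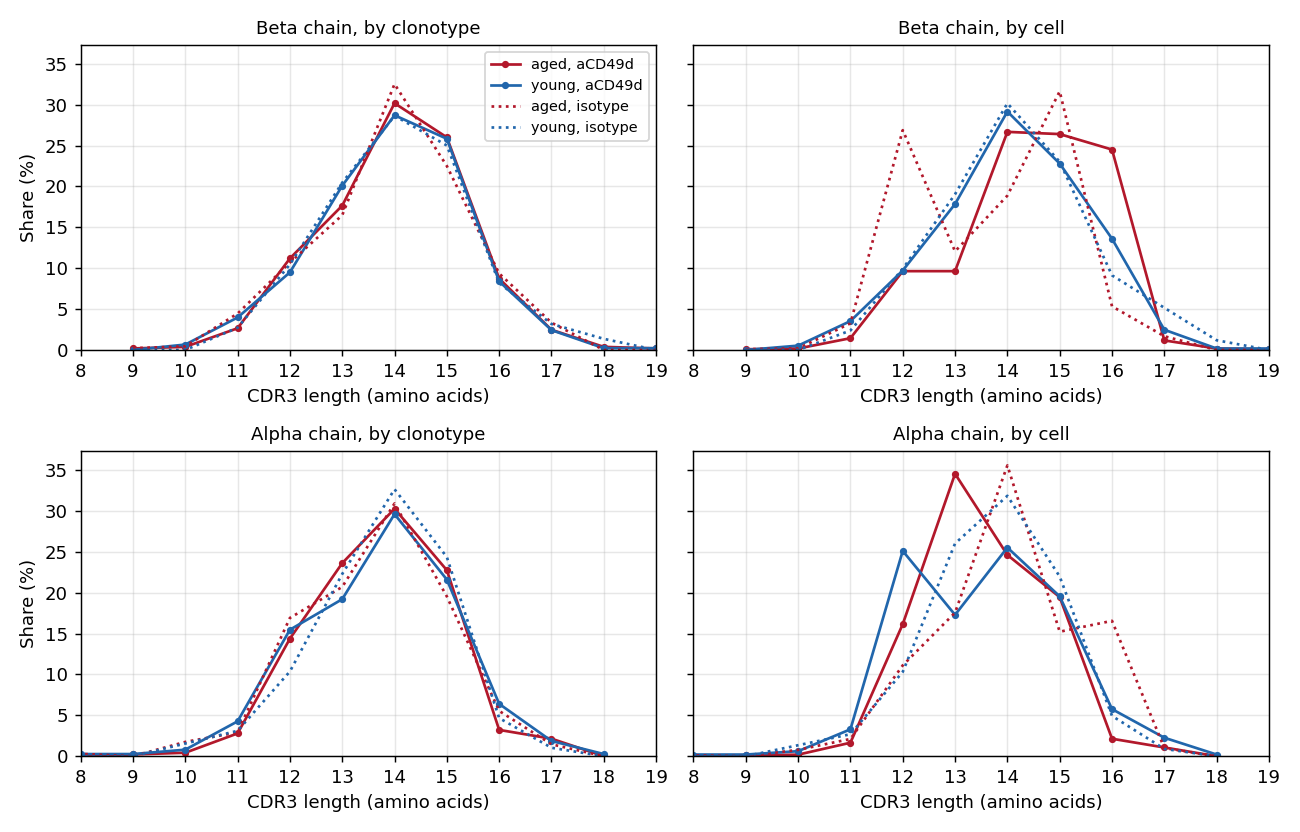
Distribution of CDR3 length in amino acids, as a share in percent of clonotypes (left) or cells (right), for β chains (top) and α chains (bottom). Solid lines are the aCD49d libraries and dotted lines the isotype libraries, aged in red and young in blue. The 4 curves run close together by clonotype and part by cell, where 24.5% of aged aCD49d cells have a β CDR3 of 16 amino acids.

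The bases added or kept from D at the join, counted as CDR3 bases that match neither germline end, were as many in aged as in young clonotypes. The mean was 10.2 and 10.1 bases per β chain and 2.71 and 2.86 per α chain. By cell the β chains had 11.5 in the aged and 10.2 in the young library. The aged clonotypes above 1% of the library had a mean of 13.5 junction bases over their cells, against 10.2 in all other aged cells. An α join with 0 such bases was found in 19.5% of aged and 16.3% of young clonotypes, with an interval of the difference from −2.16 to 8.56 points. The net charge of the β CDR3 (lysine and arginine minus aspartate and glutamate) averaged −0.78 in aged and −0.77 in young clonotypes, and −1.04 and −0.70 by cell. The aged clonotypes above 1% of the library averaged −1.48 over their cells, and the young ones 0.13. For the α CDR3 it averaged 0.61 and 0.74 by clonotype, and 0.51 and 0.76 by cell.

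Receptors of invariant natural killer T (iNKT) cells, which recognise lipids on CD1d through an α chain made of TRAV11 and TRAJ18, were found in both libraries as many small clonotypes. TRAV11 (chr14:53519303-53519859) with TRAJ18 (chr14:54200777-54200842) was used by 38 aged clonotypes, 8.15% (5.84 to 11.0), and 35 young ones, 9.33% (6.59 to 12.7). The difference was −1.18 points (−5.30 to 2.79). The product of the segment shares predicted 0.79% and 0.95%. By cell the pair held 3.99% of aged and 7.202% of young cells in clonotypes with an α chain, a difference of −3.21 points (−6.11 to −0.67). Among cells with their own α chain read, the shares were 4.27% and 7.74%. The largest such clonotype had 2 aged cells and 1 young cell. Outside clonotypes above 1% of a library, TRAV11 was used by 6.70% of aged and 8.73% of young cells.

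The α sequences of this pair are shown because the same few recurred in different clonotypes, here with junction bases in capitals and the number of cells with their own α read in the aged and young aCD49d libraries.
iNKT α, 14 aged and 12 young cells: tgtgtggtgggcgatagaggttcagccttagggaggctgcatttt
iNKT α, 9 aged and 12 young cells: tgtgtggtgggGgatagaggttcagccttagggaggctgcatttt
iNKT α, 11 aged and 7 young cells: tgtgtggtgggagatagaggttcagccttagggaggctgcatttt
The sequences without a capital need no added base, and all 3 have the same length of 45 bases. The β partner was TRBV13-2 or the joint call in 21 of 37 aged and 15 of 33 young clonotypes, TRBV1 in 4 and 4, and TRBV29 in 4 and 5, which are the β segments known for mouse iNKT cells. The receptor of mucosal-associated invariant T (MAIT) cells, TRAV1 with TRAJ33, was found in 2 young clonotypes and in 0 of 937 aged cells with their own α chain, where the 3 cells that a count of 0 allows are 0.320%.

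Few receptors were found in both libraries. Of 513 aged and 450 young β CDR3 nucleotide sequences, 0 were shared, and 5 were shared as amino acids, 0.977% of the aged and 1.12% of the young ones. Of 420 aged and 343 young α CDR3 nucleotide sequences, 5 were shared, and 1 of these lay outside the iNKT pair. As amino acids 10 α CDR3s were shared, 2.43% of the aged and 2.96% of the young ones. No receptor was shared by both chains, among 444 aged and 364 young pairs. None of the clones printed above thus had cells in both aCD49d libraries.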

How the data were processed

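TCRs of CD45+ brain cells were sequenced in 4 libraries (10x 5′ v2, immune profiling). The authors used Cell Ranger 7.2.0 with mm10. Their deposited tables list productive, full-length chains, with UMI and read counts, V and J calls and CDR3s, and each clonotype with its cells as counts and as a fraction of the library. Transcriptomes (4 samples) were not used here, so the authors' later restriction to T cells was not repeated.

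Each clonotype received the V, J and CDR3 of its chain with most UMIs, and each cell those of its clonotype. Junction bases were CDR3 bases matching neither germline end in GRCm38 (GENCODE vM21). No doublet caller was run, and cells with more than 1 β chain were left out only as an alternative. A single library per group left no replicate for a test. Segments were named as the 3 with the largest difference per segment type and count, with those that differed by at least 5 percentage points by cell and under 1 by clonotype. Pairs were the 3 largest per chain and count among those with at least 10 clonotypes or cells. TRAV9-4, TRAV6N-7, TRBV16, TRAJ33, TRBV10, TRBV19, TRBV15, TRBV20, TRBV26 and TRBV29 fall outside this rule and were named after their values were seen. The same holds for TRAJ11, TRAJ17, TRAJ39, TRBJ1-2, TRAJ9, TRBV14 and TRAV7N-6. Members, lists and rules were chosen with earlier results of these data known. Scripts were tested on simulated data and ran in Python 3.11.15 (numpy 2.4.6, pandas 2.3.3, scipy 1.17.1, matplotlib 3.10.9).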

Additional observations from a re-analysis of the deposited data

Results flagged for a closer look

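For 6 of the 61 segments past the minimum, the difference in share between aged and young libraries went one way under aCD49d and the other way under the isotype antibody, with an interval that left out 0 in each. Whether the differences themselves differ was not tested, as there was 1 library per group. TRBV31 by clonotype had −4.72 percentage points under aCD49d and 3.97 under isotype. By cell, TRAJ34 had 9.07 and −3.6 points, TRBJ2-3 had 3.99 and −5.28 points, and the joint call TRBV12-2+TRBV13-2 had 5.82 and −10.6 points. TRBJ1-2 by cell had −2.77 and 14.6 points, and TRAJ9 by cell had −2.43 and 10.5 points. In the aged isotype library TRBV14 with TRBJ1-2 held 172 cells in 2 clonotypes. TRAV7N-6 with TRAJ9 held 109 cells there in 1 clonotype. The values by cell thus include single large clones, and their intervals take each cell as an independent draw. The only one of these counted by clonotype is TRBV31. Among the other shares and pairs given in the report, the same held by cell for TRAV9-4 (19.1 and −1.8 points), for TRBV13-2 added to the joint call (6.49 and −10.3 points) and for the joint call with TRBJ2-4 (8.05 and −2.28 points).

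Cell barcodes were compared between all libraries, and 1 barcode was found in both the aged aCD49d and the aged isotype library.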

How the results depend on the processing

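Of 31 share differences whose interval left out 0, 181 of 186 values under other settings kept their direction. With a threshold of 2-fold, the segments past it by clonotype were 1 TRBV (from 6), 0 TRBJ (from 1), 1 TRAV (from 6) and 2 TRAJ (from 7), and by cell 1 TRBJ (from 8) and 3 TRAV (from 9). With a minimum of 10 clonotypes, 17 of 32 TRAV and 13 of 34 TRAJ segments passed by clonotype, and 21 and 20 by cell. With the aged library thinned to the size of the young, 2 TRAV and 3 TRAJ segments passed by clonotype, and among clonotypes of 1 cell 2 TRAV segments did. By TRAV family, 3 passed by clonotype and the index by cell was 0.817 (from 0.398). With only cells whose own chain was read, the indices by cell were 0.458 for TRAV and 0.650 for TRAJ.

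Without clonotypes above 1% of a library, the indices by cell were 0.957 for TRBV, 0.922 for TRAV and 0.929 for TRAJ, and 3 TRBJ, 4 TRAV and 7 TRAJ segments passed by cell. The differences by cell were then −7.03 points for the TRBJ2 cluster (from 0.396), −0.568 for TRBV3 and −1.52 for the joint call, 0.0558 for β charge and 0.0539 amino acids for β length. Without the largest clonotype alone, the TRAV and TRAJ indices were 0.583 and 0.692, and the differences by cell −3.17 points for the joint call and −1.1 for the joint call with TRBJ2-4. As a product of V and J shares, the joint call with TRBJ2-7 had 2.01 points by cell (from −2.02).

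TRBJ1-1 stayed between 6.41 and 8.20 points by clonotype and between 7.50 and 9.31 by cell. Joining TRBV13-2 with the joint call, and defining clonotypes by the β chain, were chosen after seeing the data. No paired analysis was possible because no group held a second library. The number of clonotypes limits shares of rare segments.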
